A study of Mus musculus with 6 samples.

Results

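Adhesion G protein-coupled receptors are described here in 410.4 cells, a mouse mammary carcinoma line, by the sequencing of their messenger RNA. All groups shared the line, 2 days of treatment and medium with 0.5% serum. The 3 control libraries came from cells in plain DMEM of that serum content, and the 3 others from cells in the same medium into which neutrophil extracellular traps (NETs, the DNA and protein webs that neutrophils release) had been collected. The genes were chosen by symbol: every row of the count table whose name starts with Adgr and a lower-case letter, 28 of 55809 rows. The symbols took no account of values, but the family was picked from earlier results of this same contrast, in which Adgra1 was among the largest rises. All differences between the media given for Adgr genes are therefore descriptions, without p-values, and the calls made in the fit across all genes are named only to say which members were past its threshold. One cell line in 2 media was studied, the design cannot separate the NETs from anything else that differed between the media, and whether the replicates came from different cultures is not stated, so p-values measure only the spread of these libraries, which may be technical.

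Adhesion G protein-coupled receptors (GPCRs) join a long extracellular part, usually built from adhesion domains, to the membrane-spanning domain of a G protein-coupled receptor. Most are cut by themselves at a site close to the membrane, and the released end leaves a tethered peptide that can switch the receptor on when the outer part is pulled away by a ligand on a neighbouring cell or in the matrix. The family is sorted by letter into subfamilies, which bind matrix proteins, membrane proteins of other cells or, in many cases, no ligand that is known.

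The libraries held between 31119105 and 64431811 counts. Of 13956 genes tested, 38.9% were called at an adjusted p of 0.05 in edgeR's quasi-likelihood test, 20.2% higher and 18.7% lower with NETs, and at 49.0% the scaled values of one group all lay above those of the other. With libraries scaled by size alone, 35.9% of the called genes were higher, against 52.03% with the scaling used. Markers of mammary epithelium summed to between 4980.3 and 5331 CPM (counts scaled to library size with TMM factors) in control medium and between 5548 and 5766 CPM with NETs, and none of these 9 genes was at 0. They went different ways: Cldn4 (378 and 789 CPM), Krt7 and Krt8 were called higher. Krt18 (1190 and 984 CPM), Cdh1 and Cldn7 were called lower, and Epcam, Krt19 and Cldn3 were not called. Of 10 neutrophil markers, 5 (Elane, Camp, Ngp, Retnlg and Csf3r) were at 0 in all 6 libraries, and the sum of the list ran from 1.62 to 2.08 CPM in control medium and from 2.98 to 3.37 CPM with NETs. S100a8, with means of 1.38 and 2.63 CPM, was called higher, and Cxcr2 (0.220 and 0.481 CPM) was not called. Ly6g went the other way, with 8, 6 and 6 counts in control medium and 0 in every library with NETs. The means of S100a9, not tested, were 0.109 and 0.0730 CPM. The 10 macrophage and leukocyte markers summed to between 56.5 and 62.1 CPM in control medium and between 113 and 119 CPM with NETs. Csf1r was called higher, with means of 24.1 and 80.2 CPM, while Cd14 (20.7 and 23.6 CPM) and Cd68 (12.4 and 10.7 CPM) were not called. Mrc1 was called lower (1.05 and 0.405 CPM). Fcgr3 was called higher on few counts, with 2, 0 and 4 in control medium and 10, 10 and 11 with NETs. Tyrobp was at 0 in all libraries, and Ptprc, Itgam and Lyz2 were at 0 in every library with NETs. Laptm5, not tested, had 2, 0 and 0 counts in control medium and 6, 2 and 0 with NETs. Of 8 endothelial markers Erg and Cldn5 were at 0, with sums from 12.5 to 14.3 CPM and from 14.1 to 17.0 CPM, and of 6 fibroblast markers Dcn and Lum were at 0, with sums from 42.8 to 48.7 CPM and from 59.3 to 68.0 CPM. Of the fibroblast list Col1a1 was called higher, with means of 1.18 and 13.4 CPM, and Pdgfra stood at 45.4 and 49.2 CPM. Cdh5, called higher, made up most of the endothelial sum (13.0 and 15.8 CPM). The part of these lists in the values below was not tested. In such bulk libraries fewer cells that carry a message and less message per cell cannot be told apart.

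Of the 28 family members 21 had a count in at least 1 library, 14 had counts in all 6 libraries, and the same 14 passed the filter on low counts and were tested. Another 7 had a few counts and 7 were at 0 in all libraries. Of the 14 tested members 4 were past the threshold upward and 5 downward, next to 20.2% and 18.7% of all genes tested. At 11 of the 14 the control and NET values did not overlap, next to 49.0% of all genes. Among the 11 was Adgrb2, which passed the filter only through the libraries with NETs, where it was higher. Their log2 fold changes had a median of 0.08, against -0.00 over all genes tested, and ran from -1.14 (Adgra2) to 5.19 (Adgra1). Among the 9 called members 2 were higher by at least 2-fold (Adgra1 and Adgrg1) and 1 was lower by at least 2-fold (Adgra2), next to 3.65% and 2.31% of all genes tested.

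**Figure D1:**
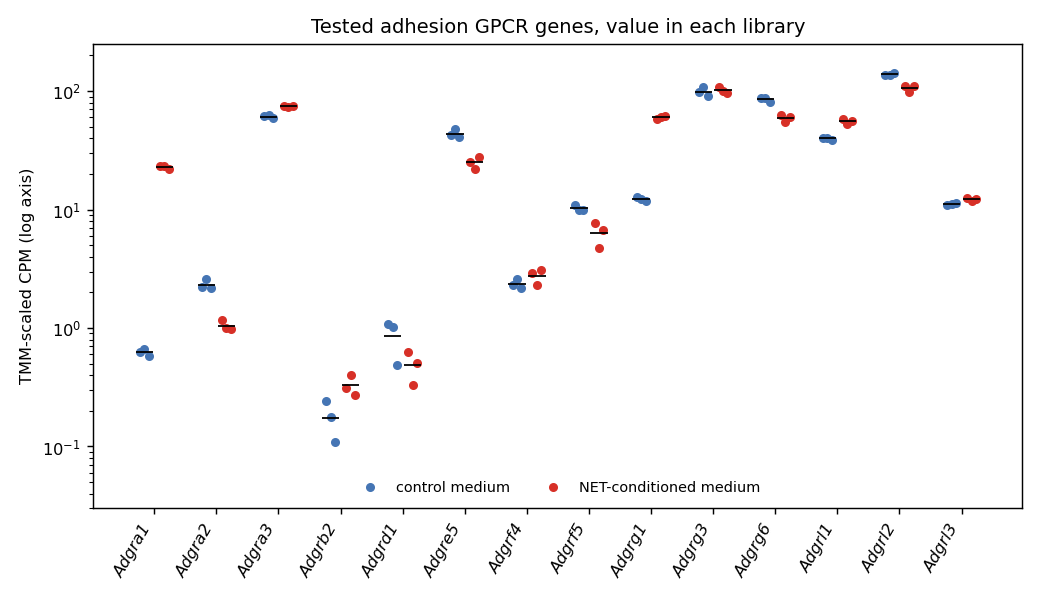
TMM-scaled CPM on a log axis for the 14 tested members, with a point for each of the 3 control libraries (blue) and the 3 libraries with NETs (red) and a bar at each group's mean. Adgra1 and Adgrg1 stand apart between the media, and Adgrg3 lies at about the same height in both.

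Compared per length of exon, which allows genes to be set beside each other, the family in control medium was led by Adgrg3 at 14.3 ± 1.27 CPM per kilobase (mean ± SD, n = 3). Next came Adgre5 at 11.6 ± 0.940, Adgrl2 at 9.74 ± 0.194, Adgra3 at 7.51 ± 0.224 and Adgrg6 at 6.998 ± 0.280 CPM per kilobase. The level and place of Adgre5 are uncertain, as its exons overlap those of Ddx39a on the other strand. Adgrl1 stood at 4.64 ± 0.132 and Adgrg1 at 2.27 ± 0.0988 CPM per kilobase. The remaining 7 tested members lay between 1.14 (Adgrf5) and 0.0270 CPM per kilobase (Adgrb2). The ranges of neighbours in this order did not overlap between any of the 14, apart from Adgra1 (0.116 ± 0.00773) and Adgrd1 (0.104 ± 0.0390 CPM per kilobase). With NETs the order began with Adgrg3 (14.7 ± 0.787), followed by Adgrg1 (11.1 ± 0.406), Adgra3 (9.19 ± 0.168) and Adgrl2 (7.55 ± 0.498 CPM per kilobase). The range of Adgre5 (6.70 ± 0.778) overlapped there with that of Adgrl2 and with that of Adgrl1 (6.46 ± 0.270 CPM per kilobase). Further down, the ranges of Adgrf4 and Adgrf5, of Adgrf5 and Adgrl3, and of Adgrd1 and Adgrb2 overlapped. Adgrg1 thus stood in place 7 without NETs and in place 2 with them, and Adgra1 in places 12 and 8.

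Subfamily A holds Adgra1, an orphan receptor best known from the brain, Adgra2, which works with the membrane protein Reck as a receptor for Wnt7a and Wnt7b in brain vessels, and Adgra3, a relative linked to cell polarity and Wnt signalling. The 3 genes went different ways. Adgra1 had 42, 30 and 32 counts in control replicates 1 to 3 and 1045, 702 and 1141 counts with NETs. On the CPM scale these were 0.631, 0.664 and 0.581 against 23.3, 23.3 and 22.1. The groups lay far apart with little spread inside either, and the log2 fold change was 5.19 ± 0.12 (SE), or 36.6-fold. Its span in the deposited table is positions 139414090 to 139458004 of chromosome 7 on the plus strand, in 8 exon blocks, and no exon of another gene in the table overlaps its exons.

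The 250 bases before the annotated start of Adgra1 are shown because no other member changed as much. They come from RefSeq on build GRCm38.p6, chr7:139833924-139834173 on the plus strand, a build whose coordinates differ from those of the count table. Capitals mark the 5-base SMAD box, which is CAGAC or on the other strand GTCTG, the core that SMAD proteins bind.
Adgra1: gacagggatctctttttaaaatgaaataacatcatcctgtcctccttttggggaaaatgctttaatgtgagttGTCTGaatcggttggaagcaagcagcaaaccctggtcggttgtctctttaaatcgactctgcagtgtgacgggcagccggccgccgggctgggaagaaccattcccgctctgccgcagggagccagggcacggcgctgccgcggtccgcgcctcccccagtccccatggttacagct
The window held 1 such box, where 42.2% of the 32851 promoter windows of the table held at least 1 on either strand. A match is a description of letters, not a bound site. It held 15 CG pairs, against a median of 6 over all windows, and 0 copies of TGANTCA, the letters of an AP-1 site, which 6.75% of all windows held. The window also held 1 copy of GGAATG, the letters of a TEAD site, on the other strand, and 12.6% of all windows held 1 or more. Of CANNTG, the letters of an E-box, it held 0 copies, where 66.2% of all windows held at least 1.

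Adgra2 stood at 2.21, 2.61 and 2.16 CPM in control medium and at 1.16, 0.996 and 0.989 CPM with NETs. All control libraries lay above all those with NETs, and Adgra2 fell by 1.14 on the log2 scale (SE 0.21), a 2.21-fold lower level. Its exons overlap exons of Brf2 on the opposite strand, a gene with means of 10.6 and 10.4 CPM (log2 fold change -0.02, not called) against 2.33 and 1.05 CPM for Adgra2, and its value is uncertain, as it is not known whether reads were counted by strand. Adgra3 had 61.5, 62.4 and 58.9 CPM in control medium and 75.3, 73.0 and 75.4 CPM with NETs. The groups did not overlap, and Adgra3 rose by 0.29 ± 0.05 (SE) on the log2 scale, 1.22-fold.

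Subfamily G was present through Adgrg1, Adgrg3 and Adgrg6. Adgrg1, also known as GPR56, binds the collagen product of Col3a1 and the transglutaminase of Tgm2 and signals through the G proteins Gna12 and Gna13 to RhoA. It had 12.9, 12.3 and 11.8 CPM in control medium and 57.8, 59.9 and 62.2 CPM with NETs. The lowest library with NETs lay far above the highest control library, and Adgrg1 rose 4.87-fold, by 2.28 ± 0.06 (SE) on the log2 scale. Adgrg3, also known as GPR97 and described mainly in granulocytes, had 98.3, 108 and 90.7 CPM in control medium and 107, 99.7 and 96.9 CPM with NETs. These groups overlapped, and the log2 fold change of Adgrg3 was 0.03 ± 0.06 (SE). It turned to -0.04 with library size alone, to -0.03 without control replicate 3 and to -0.01 without NET replicate 1. Adgrg3 was thus among the abundant members in both media. Adgrg6, also known as GPR126, raises cyclic AMP in Schwann cells on the way to myelination and binds the products of Col4a1, Lama2 and Prnp. It had 87.8, 87.3 and 81.6 CPM in control medium and 63.3, 54.6 and 60.8 CPM with NETs. All control values were higher, and Adgrg6 fell by 0.52 (SE 0.06) on the log2 scale, to a 1.43-fold lower level. Exons of Adgrg6 overlap exons of Gm46212 on the other strand, which had 147 counts over all libraries.

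Adgrg5, Adgrg1 and Adgrg3 follow each other on the plus strand of chromosome 8, the first 31.5 kb before the second and the second 3.5 kb before the third. In the deposited table Adgrg1 spans 95701379 to 95740845 and Adgrg3 95744320 to 95771878. Adgrg5 had 2 counts, all in NET replicate 1, so that of 3 neighbours of one kind one was hardly detected, one rose and one had a log2 fold change near 0. The tested gene before the run was Ccdc102a, whose mean was 13.0 CPM without NETs and 19.8 CPM with them (log2 fold change 0.60).

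**Figure D2:**
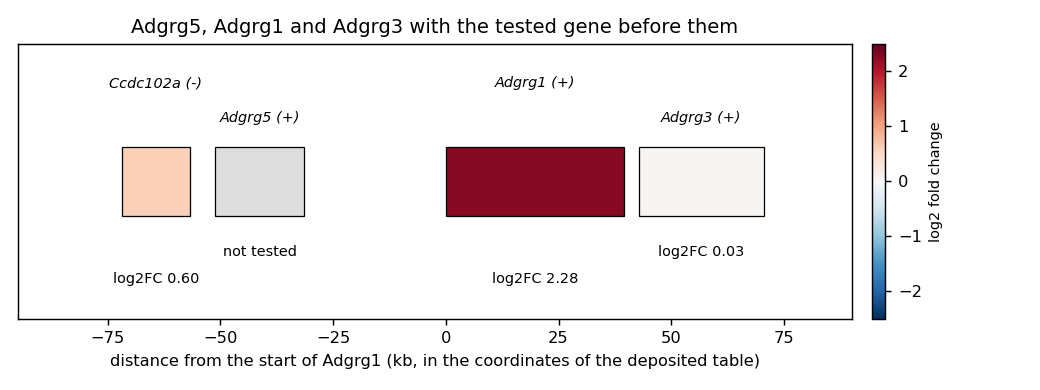
Map to scale of Adgrg5, Adgrg1 and Adgrg3 with the tested gene before them (Ccdc102a), in kilobases from the start of Adgrg1, coloured by the log2 fold change of NET-conditioned minus control medium. Adgrg1 (2.28) is dark red, while Adgrg3, which starts 3.5 kb after it, is near white (0.03) and the untested Adgrg5 is grey.

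The promoter windows of Adgrg1 and Adgrg3 are set side by side because the genes are adjacent and differed in their change. Each is the 250 bases before an annotated start, from RefSeq on GRCm38.p6, all on the plus strand of chromosome 8. Adgrg1 has 2 windows, chr8:94976859-94977108 and chr8:94984149-94984398, called its first and second start here. The window of Adgrg3 is chr8:95017442-95017691. The gene model counted for Adgrg1 may have a further start, whose window is not shown. Capitals mark the SMAD box on either strand and TGANTCA.
Adgrg1 first start: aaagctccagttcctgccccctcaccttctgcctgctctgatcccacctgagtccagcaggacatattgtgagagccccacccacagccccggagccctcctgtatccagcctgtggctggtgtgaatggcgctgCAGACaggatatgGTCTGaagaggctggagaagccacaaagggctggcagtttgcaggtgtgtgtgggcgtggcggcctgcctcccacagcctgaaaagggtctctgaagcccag
Adgrg1 second start: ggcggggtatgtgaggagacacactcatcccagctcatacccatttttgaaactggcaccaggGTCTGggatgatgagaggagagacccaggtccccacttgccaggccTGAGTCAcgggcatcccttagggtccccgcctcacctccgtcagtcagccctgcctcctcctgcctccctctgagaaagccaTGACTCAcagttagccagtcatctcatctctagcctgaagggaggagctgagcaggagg
Adgrg3: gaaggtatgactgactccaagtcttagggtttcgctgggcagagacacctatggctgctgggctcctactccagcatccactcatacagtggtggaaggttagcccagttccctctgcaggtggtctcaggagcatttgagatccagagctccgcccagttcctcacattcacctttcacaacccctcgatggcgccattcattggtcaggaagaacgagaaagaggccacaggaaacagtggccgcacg
The first window of Adgrg1 held 2 SMAD boxes and 0 copies of TGANTCA, the second 1 SMAD box and 2 copies of TGANTCA, and the window of Adgrg3 held 0 of either. The 2 motifs did not overlap in these windows, TGANTCA reads the same on both strands, and which start the cells used was not measured. Promoter windows were found for 20 of the 28 members, 24 windows in all, of which 10 held a SMAD box. That is near the 42.2% of all windows. TGANTCA was found in 6.75% of all windows. The window of Adgrf4, which was not past the threshold, held 3 SMAD boxes and 2 copies of TGANTCA. That of Adgrg4, at 0 counts in all libraries, held 1 copy of TGANTCA. Whether these motifs bear on the differences between the media was not tested.

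Subfamily L holds the latrophilins, receptors for teneurins and FLRT proteins on facing cells. Adgrl1 had 40.4, 40.6 and 38.5 CPM in control medium and 57.7, 53.1 and 55.6 CPM with NETs. The groups did not overlap and Adgrl1 rose 1.39-fold, by 0.48 ± 0.06 (SE) on the log2 scale. Its exons overlap 3 gene models on the other strand, of which Gm10644 had 142 counts over all libraries and the others at most 2. Adgrl2, the member with the most counts in control medium, went the other way, with 137, 136 and 141 CPM in control medium and 111, 99.0 and 111 CPM with NETs. No value with NETs reached a control value, and Adgrl2 fell by 0.37 (SE 0.05) on the log2 scale. Adgrl3 had 10.9, 11.2 and 11.3 CPM in control medium and 12.6, 11.8 and 12.3 CPM with NETs. Its groups did not overlap, but the log2 fold change of 0.13 ± 0.09 (SE) was not past the threshold. Adgrl4, known from endothelial cells, had 3 counts, all in control replicate 2.

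Adgre5, which encodes the leukocyte and tumour cell protein CD97, a receptor for CD55, had 42.7, 47.5 and 40.6 CPM in control medium and 25.3, 22.2 and 28.0 CPM with NETs. The control values all lay above the others, and Adgre5 fell by 0.79 (SE 0.08) on the log2 scale, to a 1.72-fold lower level. Its exons overlap exons of Ddx39a on the other strand, which held 40624 counts over all libraries, so its value is uncertain for the reason given for Adgra2. Adgre5 lies 158.8 kb from Adgrl1 on chromosome 8, and the 2 genes were called in opposite directions. Adgre1, whose product F4/80 marks macrophages, was at 0 in all libraries. A count of 0 allows a level of up to 0.0902 to 0.199 CPM, depending on the library (6 counts, that is 3 fragments with both mates counted, counting error only). Adgre4 had 2 counts, both in control replicate 2.

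In subfamily F, Adgrf5 (GPR116, which restrains surfactant in the lung and binds the surfactant protein of Sftpd) had 11.004, 9.95 and 9.86 CPM in control medium and 7.76, 4.72 and 6.69 CPM with NETs. The groups were apart, with more spread with NETs than in control medium, and Adgrf5 fell by 0.67 (SE 0.14) on the log2 scale. Adgrf4, an orphan receptor of epithelia, had 2.31, 2.61 and 2.18 CPM in control medium and 2.90, 2.32 and 3.10 CPM with NETs. These values overlapped and its log2 fold change was 0.25 ± 0.17 (SE), not past the threshold. Adgrf3 had 20, 4 and 4 counts in control replicates 1 to 3 and 0, 0 and 2 counts with NETs. It failed the filter on low counts, and without that filter it was called lower, a call that rests on few counts, most of them in control replicate 1. Adgrf2 had 6 counts in each group and Adgrf1 was at 0.

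**Figure D3:**
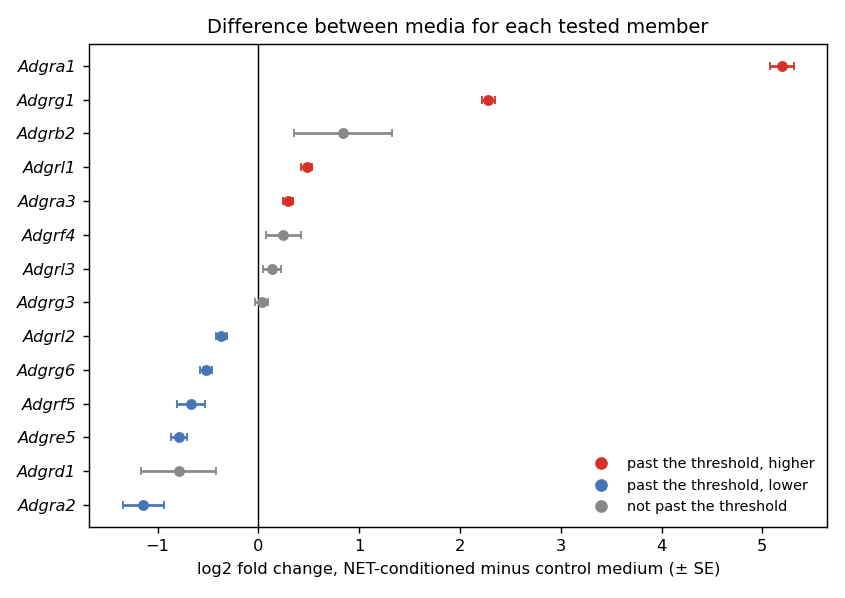
Log2 fold change of NET-conditioned minus control medium for each tested member, with its standard error, in order of size. The points run from -1.14 (Adgra2) to 5.19 (Adgra1), and the 5 members not past the threshold are grey.

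Of the other subfamilies, Adgrd1 and Adgrb2 were tested, both at low levels. Adgrd1, also known as GPR133, had 1.08, 1.02 and 0.490 CPM in control medium and 0.625, 0.332 and 0.504 CPM with NETs, with a log2 fold change of -0.79 ± 0.37 (SE). The groups overlapped because control replicate 3 was low. Adgrd1 was not past the threshold, but passed it without control replicate 3 (log2 fold change -1.08). Adgrb2, of a subfamily named for brain angiogenesis inhibitors, had 16, 8 and 6 counts in control medium and 14, 12 and 14 counts with NETs. Its log2 fold change of 0.84 ± 0.48 (SE) was not past the threshold. Adgrb2 passed the filter on low counts only through the libraries with NETs, where it was higher. That its CPM values did not overlap is therefore no support for a difference. Adgrv1, the very large receptor of the inner ear, had 12 counts in control medium and 6 with NETs, and Adgrb1 had 6 and 2. Adgrb3, Adgrg2, Adgrg4, Adgrg7 and the pseudogene Adgrd2-ps were at 0 in every library.

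The summed level of the family differed little between the media, next to shifts in its make-up. The summed CPM of all members was 508 ± 16.4 in control medium and 529.5 ± 21.5 with NETs (mean ± SD, n = 3), with overlapping ranges. The summed CPM per kilobase was 60.4 ± 2.79 in control medium and 67.4 ± 2.46 with NETs, with ranges that did not overlap. Of that per-length sum Adgre5 held 19.2% ± 0.715 in control medium and 9.92% ± 0.898 with NETs, while Adgrg1 held 3.76% ± 0.173 and 16.4% ± 0.903. The share of Adgre5 is uncertain because of the overlap with Ddx39a. Adgra1 held 0.192% ± 0.00411 in control medium and 6.32% ± 0.355 with NETs. Adgrg3 kept the largest share of the members in both media, with 23.7% ± 1.01 and 21.8% ± 1.10. Shares add to 100% by construction, so that a rise of one member lowers the others.

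**Figure D4:**
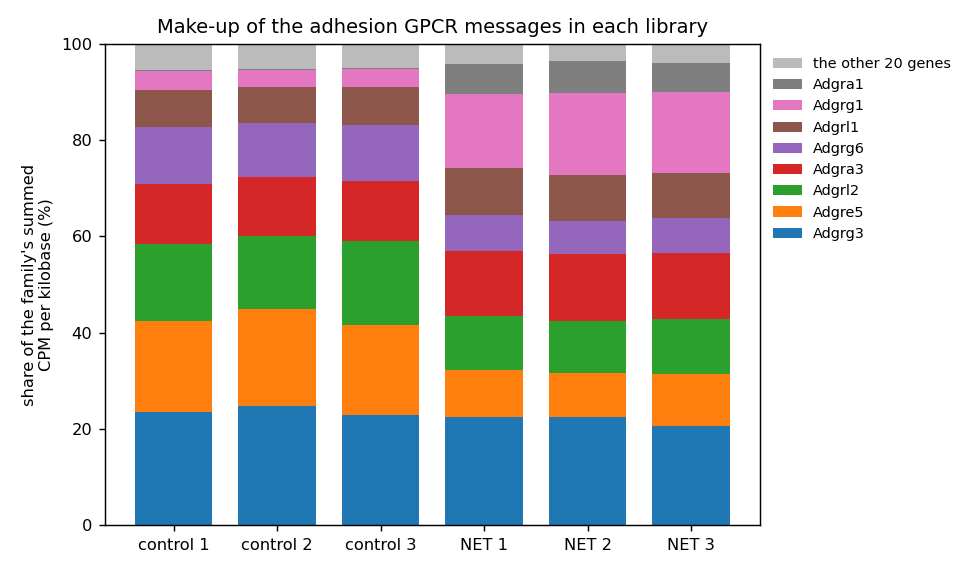
Share of each member in the family's summed CPM per kilobase, as stacked bars for each of the 6 libraries, with the 20 members of low level joined. Adgrg1 and Adgra1 together take a much larger part in the 3 libraries with NETs, and Adgre5 takes a smaller part.

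The partners of these receptors were listed by their known roles, with earlier results of these data known, and were tested in the same fit across all genes. Celsr1, Celsr2 and Celsr3 are adhesion GPCRs of planar cell polarity whose mouse symbols do not begin with Adgr. Celsr1 rose 1.43-fold, from 87.3 ± 5.53 to 125 ± 10.5 CPM (adjusted p = 6.43e-06 in edgeR's quasi-likelihood test), Celsr2 stood at 9.95 ± 1.13 and 11.4 ± 0.889 CPM (adjusted p = 0.146 in edgeR), and Celsr3 was too low to be tested. Of 30 ligands and binding partners 11 were tested, of which 5 were called higher and 2 lower, against 38.9% called in either direction over all genes, and the 11 had a median log2 fold change of 0.27. The Wnt ligands that Adgra2 receives both rose, Wnt7a 1.95-fold from 96.0 ± 5.84 to 187 ± 2.95 CPM (adjusted p = 1.88e-10 in edgeR) and Wnt7b 1.21-fold from 371 ± 18.8 to 448 ± 16.3 CPM (adjusted p = 0.000418 in edgeR). Reck stood at 0.879 ± 0.0724 and 1.18 ± 0.323 CPM and did not pass. The latrophilin ligand Flrt3 rose 1.41-fold to 12.0 ± 0.611 CPM (adjusted p = 0.000607 in edgeR), and the teneurin Tenm4 fell by 0.28 on the log2 scale to 19.4 ± 0.231 CPM (adjusted p = 0.00472 in edgeR).

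Among the ligands of subfamily G, Prnp, the prion protein gene, rose by 0.27 ± 0.06 (SE) on the log2 scale, from 75.5 ± 2.11 to 91.4 ± 6.46 CPM (adjusted p = 0.00100 in edgeR). Col4a1 stood at 458 ± 24.5 and 443 ± 17.8 CPM and Tgm2 at 117 ± 5.31 and 123 ± 4.28 CPM, and neither passed. Col3a1 had 2 counts in all, so that of the 2 ligands of Adgrg1 named above only Tgm2 was measured at a level that could be tested. Cd55, the ligand of Adgre5, had 4 counts in all, and Thy1, another ligand of Adgre5, was at 0. Of the proteins known to bind Adgrf5, Fndc4 rose by 0.34 ± 0.07 (SE) on the log2 scale to 27.9 ± 2.04 CPM (adjusted p = 0.00101 in edgeR), a gene added to those the naming rule took. Sftpd had 26, 12 and 16 counts in control medium and 2, 2 and 2 counts with NETs and is given by its counts alone, since it passed the filter only through the control libraries and lay with NETs below the limit for a count of 0. It is 1 of the 2 called lower in the list. Ptk7, a partner of Adgrd1, had 135 ± 7.37 and 146 ± 3.52 CPM and did not pass.

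Of 13 G protein alpha subunits 9 were tested, 3 were called higher and 1 lower (44.4%, near the 38.9% of all genes), and their median log2 fold change was 0.01. Gna12 rose and Gna13 fell, the 2 subunits that activate RhoA. The level of Gna12 was 83.3 ± 4.84 CPM without NETs and 102 ± 2.795 CPM with them, a log2 fold change of 0.29 (adjusted p = 0.000349 in edgeR). That of Gna13 was 171 ± 8.42 and 139.5 ± 12.5 CPM, a log2 fold change of -0.30 (adjusted p = 0.00105 in edgeR). Gnai2 rose 1.15-fold (adjusted p = 0.00364 in edgeR), and so did Gnas, the stimulatory subunit, from 1125 ± 37.6 to 1292 ± 60.4 CPM (adjusted p = 0.00574 in edgeR). The call of Gnas was lost with library size alone (log2 fold change 0.13, adjusted p = 0.0529 in edgeR). Gnai3, Gnaq, Gna11, Gna15 and Gnal did not pass.

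Of 29 downstream effectors and regulators 23 were tested, 4 were called higher and 5 lower, a share near the 38.9% of all genes, with a median log2 fold change of -0.06. Adcy3, an adenylyl cyclase, was 1.94-fold lower at 4.61 ± 0.413 against 8.95 ± 0.618 CPM (adjusted p = 3.99e-06 in edgeR), while the cyclases Adcy9 and Adcy7 rose 1.495-fold and 1.22-fold (adjusted p = 0.00136 and 0.00143 in edgeR). Arhgef1, an exchange factor that links Gna12 and Gna13 to RhoA, fell by 0.30 on the log2 scale to 223 ± 13.9 CPM (adjusted p = 0.000375 in edgeR), and the arrestin Arrb2 fell by 0.26 (adjusted p = 0.00902 in edgeR). Magi3, a scaffold, rose 1.23-fold to 95.8 ± 2.25 CPM (adjusted p = 0.000112 in edgeR). Dock1 (log2 fold change 0.24), Rock2 (-0.14) and Arhgef12 (-0.14, added to the genes of the naming rule) were called, but lost the call when any of several single libraries was left out. Rhoa itself, with 394 ± 21.3 and 420 ± 27.5 CPM, and Rac1 did not pass. Exons of Wnt7b, Tgm2, Prnp, Gnas, Gnal, Gna12, Gna13, Adcy3, Arrb2, Arhgef12, Rhoa and Rac1 overlap those of another gene in the table, and their values are uncertain to that extent.

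**Figure D5:**
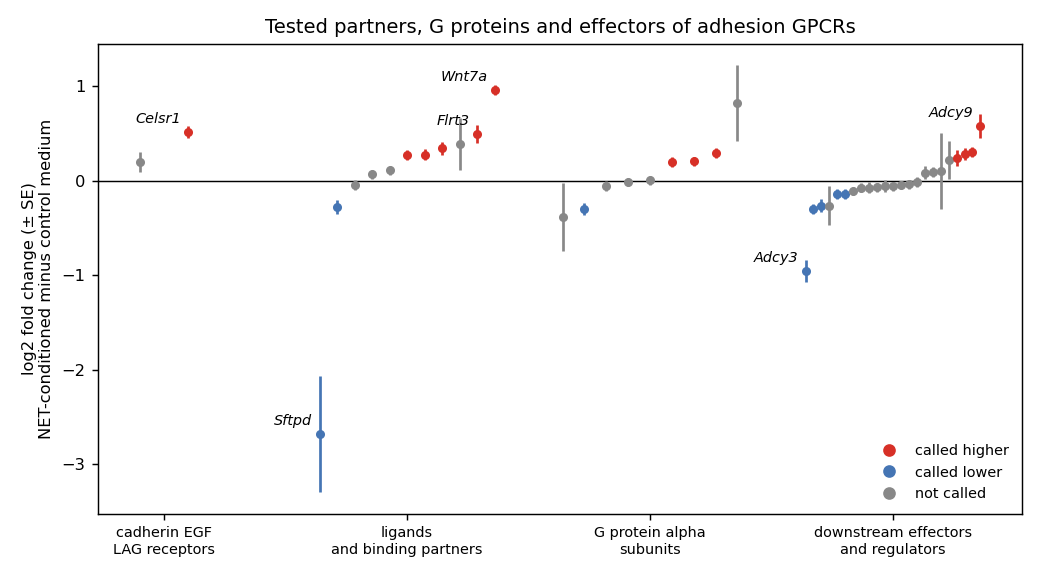
Log2 fold change of NET-conditioned minus control medium, with its standard error, for the tested genes of 4 lists of partners, in order of size within each list. Most points lie within 0.5 of 0, while Wnt7a (0.96), Gnal (0.82, not called), Adcy9 (0.58) and Celsr1 (0.52) lie above and Adcy3 (-0.95) and Sftpd, with 2 counts in each library with NETs, lie below.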

How the data were processed

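Whole-number counts per gene symbol were deposited by the authors as 1 table with the columns of featureCounts, unnormalised. STAR 2.7.10a, Subread 2.0.3 (which holds featureCounts) and mm10 are named in the submitters' processing notes. The handling of strand, pairs and multi-mapped reads was not given in any source used here. Of 28 Adgr spans 5 overlapped their RefSeq position on GRCm38.p6, so the table's coordinates (counted from 1) follow another build, not named here. Between 74.8% and 78.4% of counts from 1 to 20 were even in each library, so both mates of a pair appear to have been counted, and a limit of 3 fragments was set as 6 counts.

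Genes passing filterByExpr (minimum count 10) were tested in edgeR 4.0.16 (R 4.3.3) with TMM scaling, glmQLFit (robust) and glmQLFTest on medium alone, adjusted over all 13956 genes by the Benjamini-Hochberg method and called at 0.05. A standard error is the absolute log2 fold change over the root of F. Means and SDs were taken on TMM-scaled CPM, or on CPM divided by the exon length in the table. Between libraries of a group the chi-square statistic was 9.59 to 25.1 times its degrees of freedom, so none appears to be the same library sequenced again. This cannot tell whether the libraries came from separate cultures or from the same RNA.

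Members, lists and tests were chosen with earlier results of these data known. The naming rule took every Adgr gene and, of each list of partners, up to 4 called genes in each direction with the smallest p. Promoter windows are RefSeq's, and motifs were searched on both strands. Alternatives were RLE, upper-quartile and library-size scaling, no filter, at least 1 CPM in 3 libraries, DESeq2 1.42.0, limma-voom (limma 3.58.1), a replicate block and leaving out each library.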

Additional observations from a re-analysis of the deposited data

How the results depend on the processing

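Under the 14 alternatives the 9 called Adgr genes were called in each one, and 190 of 194 values for tested members kept their direction and side of the threshold. Of the others, Adgrd1 passed without control replicate 3 (log2 fold change -1.08), and Adgrg3, near 0 throughout, turned to -0.036 with library size alone, -0.027 without control replicate 3 and -0.013 without NET replicate 1, and reached 0.098 without control replicate 2. Counts of called members stayed at 4 higher and 5 lower, apart from 6 lower without the low-count filter (Adgrf3 added) and without control replicate 3 (Adgrd1 added). Of the 21 called partner genes 17 kept their call throughout. Gnas lost it with library size alone. Rock2 lost it without control replicate 1 or 3 or any one of the NET replicates, Dock1 with library size alone or without control replicate 1 or 2 or NET replicate 1 or 3, and Arhgef12 without control replicate 1 or 2 or NET replicate 2 or 3. Over all genes 4321 to 5181 were called with a library left out, against 5430. Library size alone shifted the median log2 fold change by -0.07.

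The replicate numbers are shared between the groups. The deviations of same-numbered libraries correlated at 0.12, -0.06 and 0.06, and not every library correlated best with its own number. With 3 libraries in each group, these values cannot decide whether the numbers pair the libraries. With a replicate block 5682 genes were called, against 5430 without it. Adgr genes called were again 4 higher and 5 lower, and no call of a member or partner was lost. For the 14 untested Adgr genes, at 0 or at few counts, no difference could be judged at this depth. The call of Adgrf3 without the filter rests on few counts, most of them in control replicate 1.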

Other observations

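The genes next to Adgra1, Adgra2 and Adgrf5 in the deposited table are given as values, a choice made after the members' values were seen. The tested gene nearest to Adgra1 on one side, Gm4459, lies 174.0 kb away and stood at 0.338 and 0.254 CPM (log2 fold change -0.43, not called). On the other side Gm16201, 72.3 kb away, was called higher at 1.61 against 0.741 CPM (log2 fold change 1.10, adjusted p = 0.00544 in edgeR). Brf2, whose exons overlap those of Adgra2, had a log2 fold change of -0.02 and was not called. The nearest tested genes that do not overlap Adgra2 were both called lower, Plpbp at 29.4 kb (log2 fold change -0.41) and Rab11fip1 at 15.3 kb (-0.15). Next to Adgrf5, which fell, both tested neighbours were called higher, Tnfrsf21 at 271.3 kb (0.42) and Pla2g7, the gene of a lipoprotein-associated phospholipase, at 108.5 kb (1.24, from 1.69 to 4.02 CPM).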
